A study of Mus musculus with 30 samples.

Results

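The genes described here are 9 mouse genes that hold the cell cycle back before DNA replication: the inhibitors of cyclin-dependent kinases (CDKs) Cdkn1a, Cdkn1b, Cdkn2a, Cdkn2b, Cdkn2c and Cdkn2d, and the retinoblastoma (Rb) family Rb1, Rbl1 and Rbl2. They were chosen by symbol, and each gene is read from its probe set with the highest mean over all arrays. Of the 9 genes, 8 had a probe set that names only that gene, and 7 of these, among 15180 of 19937 genes in all, passed the filter on low signal and were tested. The only probe set of Cdkn1a (Cip1), the best known target of p53 among the inhibitors, also names 4930567H12Rik, so no value is given for it.

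The cells are mouse primordial germ cells, from which eggs and sperm derive, and their messenger RNA was measured on 30 Affymetrix arrays at embryonic days E11.5, E12.5 and E13.5, over the days when germ cells in the female gonad turn to meiosis and those in the male gonad stop dividing. All embryos had a mixed 129/Sv and C57BL6J background and an Oct4(deltaPE)-GFP transgene, a reporter active in germ cells, and RNA of 500 sorted GFP-positive cells was amplified for each array. The control groups are labelled Ring1+;Rnf2+ and were sampled in females and males at E11.5, E12.5 and E13.5. The Rnf2delta groups are labelled Ring1+;Rnf2delta, carry a deleted allele of Rnf2 with Ring1 intact, and were sampled in females and males at E11.5 and E12.5 only, which makes 10 groups of 3 arrays. The labels do not name the Cre driver or the cells it acts in. Nor do they tell if arrays of one group stem from different embryos, so the p-values reflect the variation among these arrays, part of which may be technical. Rnf2 and Ring1 are the paired ubiquitin ligases of Polycomb repressive complex 1 (PRC1).

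As background, D-type cyclins with CDK4 or CDK6, and cyclin E with CDK2, phosphorylate the Rb family proteins, which then release E2F transcription factors and allow S phase. The INK4 proteins (from Cdkn2a, Cdkn2b, Cdkn2c and Cdkn2d) bind CDK4 and CDK6, whereas Kip1 (from Cdkn1b) and Cip1 act on cyclin and CDK complexes, and Kip1 is marked for destruction by the ubiquitin ligase subunit Skp2 with its partner Cks1b. In the fetal testis, germ cells arrest before S phase, an arrest in which Rb1 and Kip1 are known to take part. The Cdkn2a locus, which encodes Ink4a and Arf, is a classical target of Polycomb silencing in cultured fibroblasts and stem cells.

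Levels are log2 signals as the authors deposited them, so a difference of 1 is a doubling. Differences are given with their standard error (SE) from 1 limma fit of all 30 arrays, which weights each group by its spread, and a gene is said to have risen or fallen where its Benjamini-Hochberg adjusted p over 15180 genes is under 0.05. The E12.5 female groups were the most variable, with weights of 0.444 (control) and 0.595 (Rnf2delta), where the 8 remaining groups had 0.89 to 1.37. Rnf2, which checks the genotype labels, was lower in Rnf2delta by 0.61 in E11.5 females (adjusted p = 0.086), 0.31 in E11.5 males (0.48), 0.63 in E12.5 females (0.27) and 1.03 in E12.5 males (0.0012). The Rnf2 arrays overlapped between genotypes in E11.5 males, from 4.01 to 4.57 in Rnf2delta and from 4.13 to 4.79 in controls, and not in the other strata. Whether its probes lie in the deleted part was not examined. Germ cell markers had a list mean of 6.92 to 7.24 over the groups, and the lists for supporting, interstitial, steroidogenic, endothelial, erythroid and macrophage cells stayed between 1.81 and 3.12. Single genes of those lists reached further, with Pecam1, an endothelial gene also known from early germ cells, at group means of 6.23 to 7.27, Egfl7, also endothelial, at up to 4.55 in E11.5 Rnf2delta females, Tyrobp, a macrophage gene, at a mean of 4.25 in E11.5 Rnf2delta males, and Hbb-y, an embryonic globin, at 4.48 in E12.5 Rnf2delta males.

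In control germ cells, Cdkn1b fell to its lowest group mean in E13.5 females, while Cdkn2d rose to its highest group mean in the same cells, and Rb1 and Cdkn2a rose between E11.5 and E13.5 in both sexes. In Rnf2delta germ cells, averaged over the 4 stage and sex strata, Cdkn1b was higher by 1.13 ± 0.20 and Cdkn2a by 0.63 ± 0.10 on the log2 scale. Cdkn2b, Rbl1 and Rbl2 passed the test in none of the 19 contrasts, and Cdkn2c stayed at low signal throughout.

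**Figure D1:**
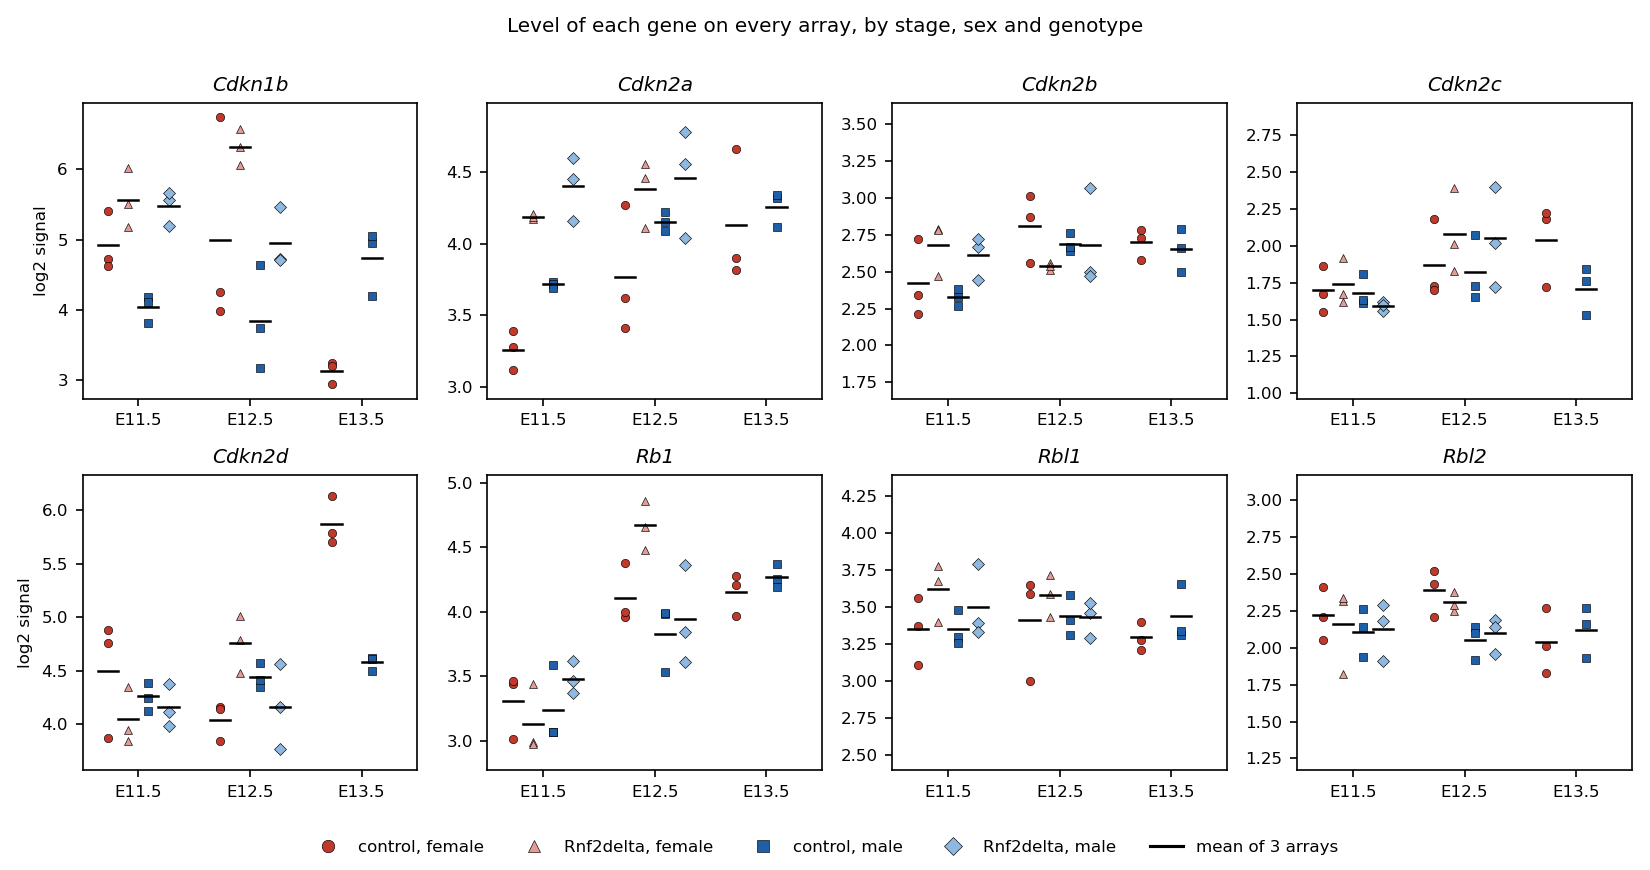
Log2 signal of the 8 measured genes (vertical axis, a separate scale for each gene) on every array by embryonic stage (horizontal axis); circles and squares are control females and males, triangles and diamonds Rnf2delta females and males, and black bars are means of 3 arrays. Cdkn1b is lowest and Cdkn2d highest in E13.5 control females, and the E12.5 control female with Cdkn1b at 6.74 stands apart from its group.

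Cdkn1b encodes Kip1, an inhibitor of CDK2 complexes that many cells use to leave the cycle. Its probe set lay at 4.72, 5.41 and 4.63 in E11.5 control females, at 4.25, 3.99 and 6.74 in E12.5 control females and at 2.94, 3.25 and 3.20 in E13.5 control females. Every E13.5 female array was below every E11.5 and E12.5 female array, and 1 E12.5 array, replicate 3, was the highest of all 30. Between E11.5 and E13.5 females Cdkn1b fell by 1.79 ± 0.35 on the log2 scale (limma adjusted p = 1.7e-04), and all 16 alternative analyses called this fall. From E12.5 to E13.5 the difference was -1.87 ± 0.45 (0.0055), but without replicate 3 of E12.5 control females it was -0.99, with adjusted p = 0.2.

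In control males, Cdkn1b was at 3.81, 4.19 and 4.12 at E11.5, at 3.74, 3.18 and 4.64 at E12.5 and at 4.95, 5.05 and 4.20 at E13.5. The E13.5 male arrays all lay above the E11.5 male arrays, with the lowest of one group beside the highest of the other. The rise between these stages was 0.70 ± 0.32 and did not pass the test (adjusted p = 0.14; 0.036 with only these groups in the fit). At E13.5 females were below males by 1.61 on the log2 scale, a difference of -1.61 ± 0.33 (5.0e-04), with no overlap of arrays and a call in 16 of 16 alternatives. The change from E11.5 to E13.5 itself differed between the sexes, by -2.49 ± 0.47 (female minus male, adjusted p = 7.8e-04, and 1.2e-04 to 0.014 over 22 alternatives). Its starting point differed too, with E11.5 females above males by 0.88 ± 0.34 (adjusted p = 0.26), without overlap of arrays.

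All 4 Rnf2delta groups had a higher mean of Cdkn1b than the control group of their stage and sex. At E11.5 the Rnf2delta arrays were at 5.51, 5.18 and 6.02 in females and at 5.57, 5.19 and 5.67 in males, and at E12.5 they were at 6.06, 6.57 and 6.32 in females and at 4.73, 4.71 and 5.46 in males. In males the arrays of the genotypes did not overlap at either stage, and in females they overlapped at both. The macrophage list mean was 2.72 in both genotypes of E11.5 males, and the erythroid list mean was 2.91 in E12.5 Rnf2delta males and 2.23 in their controls, whose part in the E12.5 male difference was not tested. The difference passed the test in E11.5 males, by 1.44 ± 0.32 (adjusted p = 0.014). That call was lost with equal weights for all arrays (0.16), without replicate 3 of the E11.5 control males (0.05) and without replicate 1 (0.054) or 3 (0.081) of the E11.5 Rnf2delta males.

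In the other strata the Cdkn1b difference was 0.65 ± 0.34 in E11.5 females (adjusted p = 0.58), 1.32 ± 0.51 in E12.5 females (0.23) and 1.11 ± 0.36 in E12.5 males (0.18). The array of 6.74 in E12.5 control females decided the female value, since without it the difference was 2.20 with adjusted p = 0.03, and equal weights also gave a call (0.049). Replicate 3 of E12.5 control males acted in the same direction: without it the male difference was 1.5 (0.025). Averaged over the 4 strata, Cdkn1b was higher in Rnf2delta by 1.13 ± 0.20 (1.9e-04), which corresponds to a 2.19-fold level, and all 34 alternatives called it. Those alternatives include the fit without the E12.5 female arrays, which averages only the remaining strata. No difference of the genotype effect between sexes or stages was called, and the intervals are wide, from -0.61 to 1.96 between the stages in females.

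Cdkn1b has a second probe set, which had the same sign and a smaller size in each comparison called for the first. Its mean genotype difference over the strata was 0.49 and its E12.5 female difference 0.21. In controls it differed by -0.99 between E13.5 females and males and by -0.65 between E13.5 and E11.5 females. Its change from E11.5 to E13.5 differed between the sexes by -1.03. The second probe set had no array like the 6.74 of the first in E12.5 control females, where it read 3.27, 3.13 and 2.80, and it differed by -0.10 between E12.5 control females and males where the first differed by 1.14 ± 0.45.

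The 250 bases before the RefSeq start of Cdkn1b are shown because this gene and Cdkn2a were both higher in Rnf2delta, and CpG-rich starts are where Polycomb complexes are known to bind. The window is chr6:134920151-134920400 on the plus strand of GRCm38.p6, with each CpG in capitals.
Cdkn1b: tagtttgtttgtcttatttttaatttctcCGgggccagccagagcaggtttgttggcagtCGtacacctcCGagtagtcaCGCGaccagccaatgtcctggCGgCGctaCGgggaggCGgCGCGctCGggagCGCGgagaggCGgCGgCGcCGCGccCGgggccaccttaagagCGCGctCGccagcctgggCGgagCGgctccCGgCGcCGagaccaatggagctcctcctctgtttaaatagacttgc
It holds 28 CpGs, and 7.6% of 32851 RefSeq windows of the same length hold at least as many, against a median of 6. The GC box letters GGGCGG occur once in it, as they do in 32.7% of windows (at least once on either strand, each match including a CpG). The letters TTTNNCGC of an E2F site and TTTGAA of a cell cycle homology element are not in the window. Among genes not called between genotypes, the windows of Rbl1, Cdkn2d and Rbl2 hold 24, 16 and 10 CpGs. Cdkn2c, which was not tested, has windows of 29 and 6. Whether the number of CpGs goes with the genotype difference was not tested.

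Cdkn2a encodes Ink4a and, from an upstream start, Arf, which stabilises p53. The probe set's annotation covers transcripts of both, so the products cannot be told apart. Both start regions are shown, since the locus is a known PRC1 target and the gene was higher in Rnf2delta. The upstream one lies at chr4:89294620-89294869 and the downstream one at chr4:89282193-89282442, both on the minus strand of GRCm38.p6, with CpGs in capitals.
Cdkn2a, upstream (Arf) start: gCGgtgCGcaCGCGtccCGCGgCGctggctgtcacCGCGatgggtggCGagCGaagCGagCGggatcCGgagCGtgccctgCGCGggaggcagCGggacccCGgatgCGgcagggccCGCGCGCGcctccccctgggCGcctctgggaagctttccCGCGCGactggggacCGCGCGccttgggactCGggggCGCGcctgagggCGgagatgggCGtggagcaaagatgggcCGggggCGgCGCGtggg
Cdkn2a, downstream (Ink4a) start: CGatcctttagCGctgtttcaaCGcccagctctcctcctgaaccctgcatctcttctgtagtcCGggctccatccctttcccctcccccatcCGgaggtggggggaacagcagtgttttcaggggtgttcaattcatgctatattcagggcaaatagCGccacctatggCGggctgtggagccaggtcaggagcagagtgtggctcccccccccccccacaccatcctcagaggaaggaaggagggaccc
The Arf window holds 40 CpGs, a number that 1.3% of windows reach, and the Ink4a window 7, which 46.3% reach. Each holds 1 match to TTTNNCGC, letters found in 4.28% of windows, and the Arf window holds 2 matches to GGGCGG. These matches are letters in a window and no binding was measured.

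In control females Cdkn2a rose step by step in its means, with arrays at 3.39, 3.12 and 3.28 at E11.5, at 3.62, 4.27 and 3.41 at E12.5 and at 3.82, 4.66 and 3.90 at E13.5. In control males it was at 3.73, 3.72 and 3.69 at E11.5, at 4.22, 4.09 and 4.15 at E12.5 and at 4.12, 4.32 and 4.34 at E13.5. In each sex the arrays of E11.5 lay below all arrays of the later stages. From E11.5 to E13.5 the rise was 0.87 ± 0.18 in females (adjusted p = 3.9e-04, called in 16 of 16 alternatives) and 0.54 ± 0.17 in males (0.02). The male call was lost with equal weights (0.083) and without replicate 3 of E11.5 (0.062) or replicate 2 (0.066) or 3 (0.079) of E13.5. No sex difference passed the test. At E11.5 all female arrays lay below all male arrays, with a difference of -0.45 ± 0.17 (95% interval -0.82 to -0.09, adjusted p = 0.27). The arrays of the sexes overlapped at E12.5, at -0.39 ± 0.24 (-0.88 to 0.10), and at E13.5, at -0.13 ± 0.17 (-0.49 to 0.22).

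At E11.5 Cdkn2a was higher in Rnf2delta in both sexes. Its arrays were at 4.17, 4.19 and 4.21 in E11.5 females and at 4.16, 4.60 and 4.45 in E11.5 males, above every E11.5 control array of the same sex. The difference was 0.93 ± 0.18 in E11.5 females (adjusted p = 0.0042) and 0.69 ± 0.17 in E11.5 males (0.025). Without replicate 2 of the E11.5 control females the female value was 0.85 (0.056). The male call was lost with equal weights (0.15) and without replicate 2 (0.071) or 3 (0.098) of the control or replicate 2 (0.12) or 3 (0.1) of the Rnf2delta arrays.

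At E12.5 the Rnf2delta arrays of Cdkn2a read 4.46, 4.11 and 4.56 in females and 4.78, 4.56 and 4.04 in males, and the genotypes overlapped in both sexes. The differences were 0.61 ± 0.27 (adjusted p = 0.3) and 0.31 ± 0.19 (0.69). The mean over the 4 strata was 0.63 ± 0.10 (7.4e-05), or 1.55-fold, called in all 34 alternatives and with a positive difference in 4 of 4 strata. As for Cdkn1b, the alternatives include a mean over only the strata other than E12.5 females. Whether the genotype difference shrank from E11.5 to E12.5 was tested by the interaction, which was -0.31 ± 0.32 in females (0.92) and -0.38 ± 0.25 in males, neither past the threshold.

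Cdkn2b encodes Ink4b and is the neighbour of Cdkn2a on chromosome 4, a locus that Polycomb complexes are known to silence as a unit in other cells. Its start region, chr4:89311033-89311282 on the minus strand, is shown so that these 3 starts of the locus can be compared.
Cdkn2b: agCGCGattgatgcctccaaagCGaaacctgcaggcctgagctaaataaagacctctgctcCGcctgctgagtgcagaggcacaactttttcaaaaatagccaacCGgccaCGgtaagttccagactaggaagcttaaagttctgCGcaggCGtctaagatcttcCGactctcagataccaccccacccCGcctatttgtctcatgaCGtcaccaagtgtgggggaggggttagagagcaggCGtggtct
The window holds 12 CpGs, a number that 33.5% of windows reach, and 1 match to TTTGAA, which 16% of windows hold. Cdkn2b signal was low, with all arrays between 2.21 and 3.07 where the filter level was 2.2 to 2.4. Small changes at such signal can be compressed, which was not tested here. Its Rnf2delta arrays were at 2.79, 2.47 and 2.78 in E11.5 females and at 2.44, 2.67 and 2.72 in E11.5 males. The E11.5 control arrays were at 2.34, 2.21 and 2.72 in females and at 2.27, 2.33 and 2.38 in males, so the male genotypes did not overlap and the female ones did.

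The mean genotype difference of Cdkn2b was 0.06 ± 0.08, with a 95% interval from -0.10 to 0.23, and it passed the test in no stratum. In controls the change from E11.5 to E13.5 was 0.28 ± 0.14 in females (adjusted p = 0.15) and 0.33 ± 0.13 in males (0.079). The female value became 0.42 (0.029) without replicate 3 of the E11.5 control females. Cdkn2c, which encodes Ink4c, exceeded its array's 40th percentile on 2 of 30 arrays and was not tested. Its group means lay between 1.59 and 2.08, the lowest in E11.5 Rnf2delta males and the highest in E12.5 Rnf2delta females, with overlap between all neighbouring groups in that order.

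Cdkn2d encodes Ink4d, an inhibitor of CDK4 and CDK6. In control females it read 4.76, 4.88 and 3.87 at E11.5, 4.16, 3.84 and 4.14 at E12.5 and 5.79, 6.13 and 5.70 at E13.5. In control males it read 4.25, 4.12 and 4.39 at E11.5, 4.35, 4.57 and 4.41 at E12.5 and 4.62, 4.61 and 4.50 at E13.5. The E13.5 female arrays lay above every other array of the series, and the male arrays spanned less than the females of E11.5 alone.

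From E12.5 to E13.5 Cdkn2d rose in females by 1.83 ± 0.26 (adjusted p = 2.0e-05), and from E11.5 to E13.5 by 1.37 ± 0.20 (3.0e-06). In males the change from E11.5 to E13.5 was 0.32 ± 0.18 (0.24). At E13.5 females were above males by 1.29 ± 0.19 (5.8e-06). The change from E11.5 to E13.5 was larger in females than in males by 1.04 ± 0.27 (0.011, and 0.0059 to 0.046 over 22 alternatives). Cdkn1b and Cdkn2d moved in opposite directions in females over the same stages, with both interactions past the threshold.

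Supporting cell markers also differed between the sexes at E13.5, with a list mean of 2.39 in control females and 2.74 in control males. The Sertoli cell genes Cst9 and Amh were highest in E13.5 control males, at 3.75 and 3.18. Their part in the Cdkn1b and Cdkn2d differences was not tested. In such sorted samples fewer cells with a transcript and less of it in each cell cannot be told apart.

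The genotype difference of Cdkn2d had no common direction. Its Rnf2delta arrays were at 4.35, 3.84 and 3.95 in E11.5 females, 3.98, 4.38 and 4.11 in E11.5 males, 5.01, 4.79 and 4.48 in E12.5 females and 4.16, 4.56 and 3.77 in E12.5 males. In E12.5 females all Rnf2delta arrays lay above all control arrays, with a difference of 0.72 ± 0.29 (adjusted p = 0.26; 0.027 with equal weights). In E11.5 females the difference was -0.45 ± 0.19 (0.39), and -0.77 (0.026) without replicate 3 of the E11.5 control females. The 4 strata averaged -0.03 ± 0.11, with an interval from -0.26 to 0.20, and the difference between stages in females was 1.17 ± 0.35 (adjusted p = 0.35).

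**Figure D2:**
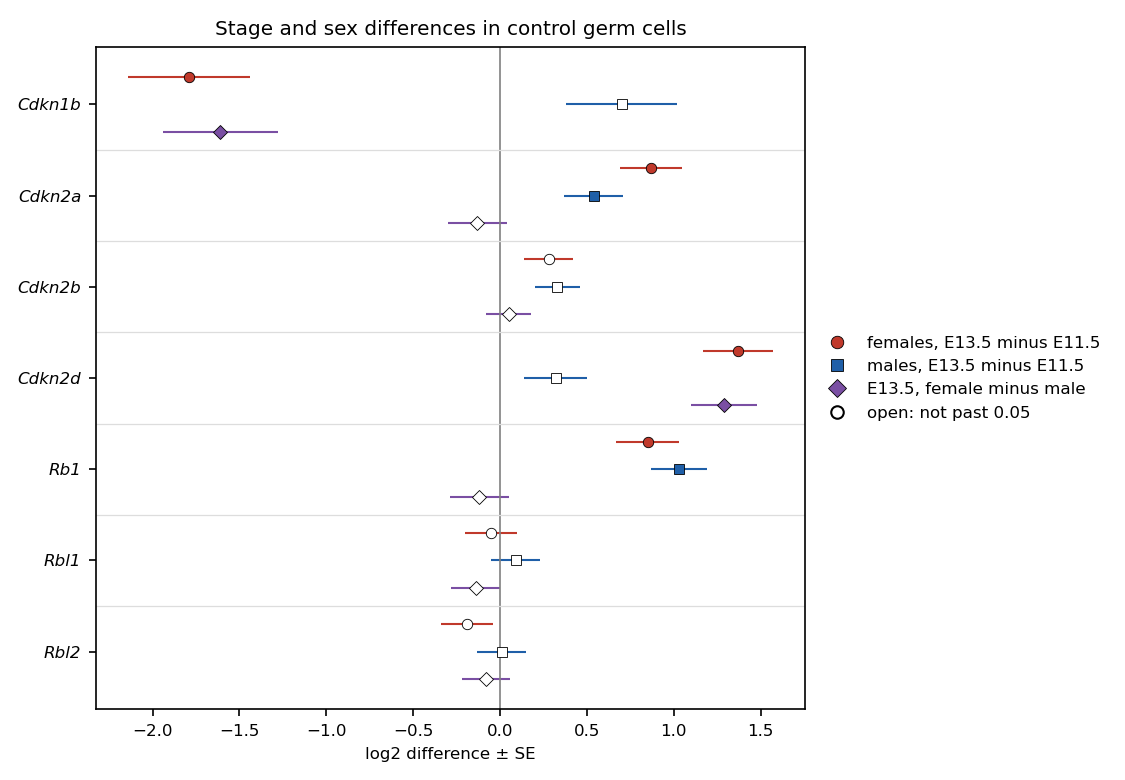
Log2 differences ± SE (horizontal axis) of the 7 tested genes in control germ cells, from E11.5 to E13.5 in females (circles) and males (squares) and between the sexes at E13.5 (diamonds); filled symbols passed the adjusted threshold of 0.05. Cdkn1b at -1.79 and Cdkn2d at 1.37 in females lie on opposite sides of 0, and Rb1 lies to the right in both sexes.

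Rb1 encodes the retinoblastoma protein, which holds E2F factors inactive. In control females it read 3.01, 3.44 and 3.46 at E11.5, 3.96, 4.38 and 4.0 at E12.5 and 3.97, 4.28 and 4.21 at E13.5. In control males it read 3.07, 3.07 and 3.59 at E11.5, 3.98, 3.53 and 3.99 at E12.5 and 4.37, 4.19 and 4.25 at E13.5. In females the E11.5 arrays lay below all later ones, and in males E11.5 and E12.5 overlapped while E13.5 lay above both.

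From E11.5 to E13.5 Rb1 rose by 0.85 ± 0.18 in females (adjusted p = 4.8e-04) and by 1.03 ± 0.16 in males (4.6e-05), and each was called in 16 of 16 alternatives. The first step, from E11.5 to E12.5, was 0.81 ± 0.24 in females (0.027) and 0.59 ± 0.17 in males (0.028). The female step was lost without replicate 1 of E11.5 (0.1) or replicate 2 (0.2) or 3 (0.066) of E12.5. The male step was lost in 7 of 16 alternatives, among them equal weights (0.09). At E13.5 the sexes differed by -0.12 ± 0.17 (interval -0.47 to 0.23), and the change over the stages differed between them by -0.18 ± 0.24 (0.73).

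Rb1 was at 2.99, 2.97 and 3.44 in E11.5 Rnf2delta females, at 3.46, 3.37 and 3.62 in E11.5 Rnf2delta males and at 3.84, 4.36 and 3.61 in E12.5 Rnf2delta males, in each case overlapping the controls. In E12.5 Rnf2delta females it was at 4.66, 4.86 and 4.48, above all 3 control arrays and above the next group in the order of means. That difference was 0.56 ± 0.27 and did not pass (adjusted p = 0.36). The mean over the strata was 0.18 ± 0.10, with an interval from -0.03 to 0.39.

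Rbl1 and Rbl2 encode the related pocket proteins of the DREAM complex, which represses cell cycle genes in resting cells. Rbl1 ranged from 3.0 to 3.79 over all arrays and its group means from 3.30 in E13.5 control females to 3.62 in E11.5 Rnf2delta females. Rbl2 ranged from 1.82 to 2.52, exceeded its array's 40th percentile on 10 of 30 arrays, and had group means from 2.04 in E13.5 control females to 2.39 in E12.5 control females. Neighbouring groups in the order of means overlapped for both genes at every step. The mean genotype difference was 0.15 ± 0.08 for Rbl1 (interval -0.03 to 0.32) and -0.02 ± 0.08 for Rbl2 (-0.20 to 0.16). The change from E11.5 to E13.5 was -0.05 ± 0.15 in females and 0.09 ± 0.14 in males for Rbl1, and -0.19 ± 0.15 and 0.01 ± 0.14 for Rbl2.

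**Figure D3:**
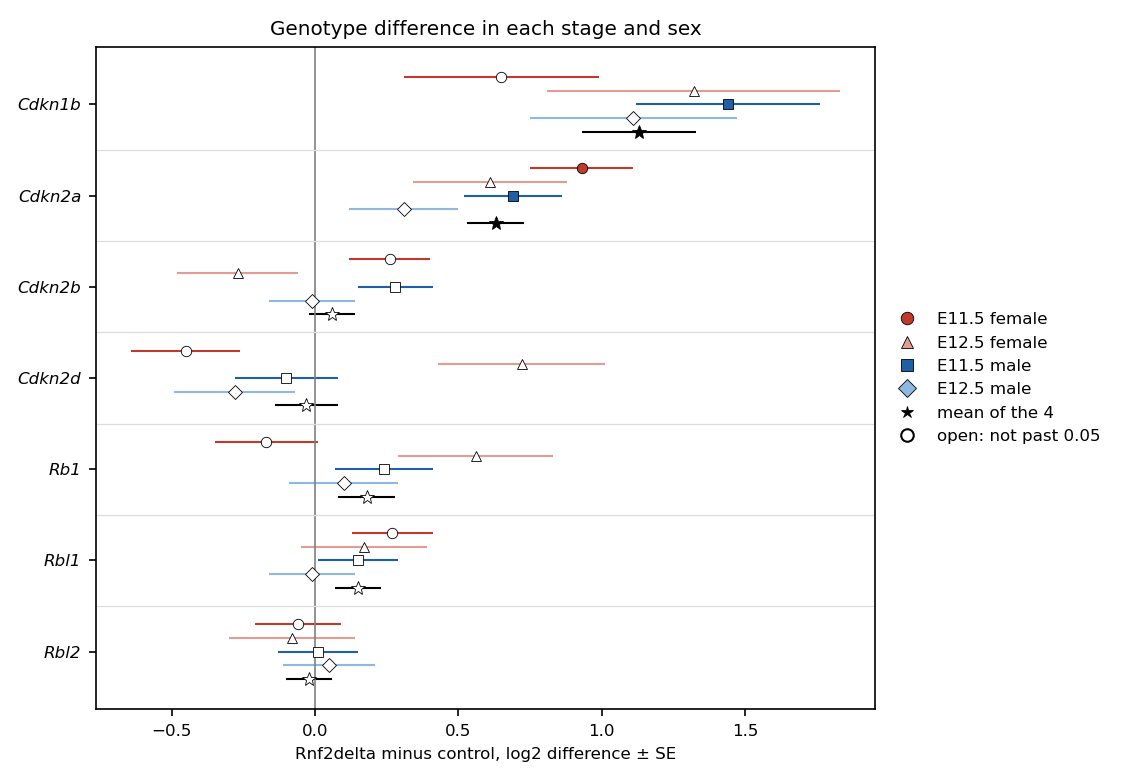
Difference between Rnf2delta and control ± SE (log2, horizontal axis) for the 7 tested genes in each stage and sex and, as a star, averaged over the 4; filled symbols passed the adjusted threshold of 0.05. The 4 points of Cdkn1b and of Cdkn2a all lie above 0, and the stars of the 5 other genes lie within 0.18 of 0.

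With 7 genes tested each count is small, and each stands beside the share of all tested genes called in the same contrast. Of the 7 tested genes, 1 was called between genotypes in E11.5 females, Cdkn2a, where 1.01% of all genes were called in either direction. In E11.5 males 2 were called, Cdkn1b and Cdkn2a, where 2.01% of genes were. In E12.5 females limma called 0 (1.55% of genes), although 4 had an unadjusted p under 0.05, and in E12.5 males 0 (1.17%), with 1 under 0.05 unadjusted, and the same 2 genes as in E11.5 males were called in the mean over the strata (9.26%). The 7 genes had a median genotype difference of 0.146 in that mean, and all tested genes one of 0.0115. For the difference of the genotype effect between stages or sexes, 0 of the 7 were called in 4 contrasts, where 0.0264%, 0%, 0.00659% and 0.0132% of genes were. Before adjustment, 4 of these 28 limma results had p under 0.05, in each case in a contrast that holds the E12.5 females.

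For control females, 1 of 7 was called between E11.5 and E12.5 (10.2% of genes), 2 between E12.5 and E13.5 (14.0%) and 4 between E11.5 and E13.5 (30.5%). For control males, the counts were 1 (7.35%), 0 (2.60%, with 2 under an unadjusted p of 0.05) and 2 (18.8%). The share of the 7 was near the background in males, and stage contrasts of one sex share their groups, so these counts are not independent of each other. Between the sexes, limma called 0 of 7 at E11.5 (0.580% of genes, with 2 under 0.05 unadjusted), 0 at E12.5 as higher in females (2.07%) or lower (9.46%), with 1 under 0.05 unadjusted, and 2 at E13.5 (22.5%), and 2 in the difference of the stage change between the sexes (10.3%). All 7 had a positive change from E11.5 to E13.5 in males, with a median of 0.327 against -0.0148 over all genes, and 4 of 7 in females. The male sign count includes Rbl1 at 0.09 ± 0.14 and Rbl2 at 0.01 ± 0.14, and only 2 of the 7 male changes were called.

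The genes themselves did not share 1 pattern over the 10 group means. The highest correlation among the 21 pairs was 0.81, between Cdkn1b and Rbl1, and the lowest -0.53, between Cdkn1b and Cdkn2d, all over means from the same 30 arrays. Among all kept genes, Cdkn1b was most like Gltp (Pearson r = 0.951 over 10 group means), Eif4a3 (0.945) and Ubqln1 (0.941). Cdkn2a was most like Tspan5 (0.944), G3bp2 (0.917) and Nefh (0.913), and Cdkn2d like Zfp235 (0.972), Naglu (0.962) and Lonrf3 (0.961). Rb1 was most like Pias2 (0.964), Vamp4 (0.954) and Gfra4 (0.952). For the genes with little change the closest were Drc1 (0.87) and Rnaseh2b (0.84) after Gm10000 (0.873) for Cdkn2b, Pnrc2 (0.889), Smim3 (0.886) and Cpq (0.882) for Rbl1, and Chchd1 (0.946), Capn12 (0.942) and Arhgap24 (0.935) for Rbl2. With 10 points and 15180 genes to choose from, such values describe these groups only.

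The other genes of the pathway are read against all 15180 genes, of which 30.5% were called in control females and 18.8% in control males between E11.5 and E13.5, and 22.5% between the sexes at E13.5, with medians near 0 in all of these comparisons. In control females between E11.5 and E13.5, 1 of 11 genes for turnover of the inhibitors rose and 5 fell, with a median difference of -0.27. Skp2, the subunit that marks Kip1 for destruction, fell by 1.5 ± 0.13 on the log2 scale (limma adjusted p = 5.7e-10), from 5.10, 5.11 and 5.24 to 3.50, 3.72 and 3.74, in the cells in which Cdkn1b RNA fell too. Dtl, which targets Cip1, fell by 1.40 ± 0.18, and Cks2, a relative of Cks1b, by 1.54 ± 0.17. Ubxn1, in the list but without an established part in this turnover, fell by 1.0 ± 0.13 and is 1 of the 5. In control males 3 of the 11 rose and 4 fell (median -0.09), with Cul1, the scaffold of the Skp2 ligase, up by 0.72 ± 0.12, Dtl down with a difference of -0.76 ± 0.17 and Cks2 with -1.47 ± 0.16, the last not called with the mean of its probe sets (-0.26). At E13.5, 7 of 11 were lower in females than in males and 1 higher (median -0.43), among the lower ones Skp2 (-0.99 ± 0.12) and Cks1b (-0.76 ± 0.11).

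Of 10 cyclins and CDKs of G1 and S phase, the targets of the inhibitors, 2 rose and 3 fell in females between E11.5 and E13.5 (median -0.17, where 30.5% of all genes were called), and 3 rose and 3 fell in males (median -0.04, where 18.8% were). Ccnd1, the D-type cyclin whose CDKs Ink4d inhibits, rose by 2.35 ± 0.16 in females (adjusted p = 1.6e-11), to 5.38, 5.68 and 5.71, in the group in which Cdkn2d was highest. Cdk4 fell by 0.97 ± 0.12 and Ccnd3 by 1.23 ± 0.14 there, while Cdk2 rose by 1.02 ± 0.20. In males Cdk2 rose by 1.65 ± 0.18 and Cdk6 by 1.33 ± 0.25, and Ccnd3 (-0.95 ± 0.13) and Ccne1 (-0.75 ± 0.14) fell. At E13.5 females had more Ccnd1 (1.93 ± 0.15) and less Cdk6 (-1.39 ± 0.26), Cdk4 (-1.27 ± 0.11) and Cdk2 (-0.86 ± 0.19) than males.

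The counts of the lists downstream of the inhibitors stand beside 30.5% of all genes called in females and 18.8% in males, and no list is called particular from them. Of 10 E2F and DP factors, not all of which the Rb family holds, 4 fell in females (median -0.27) and 1 in males (-0.22) between E11.5 and E13.5. E2f3 fell by 1.07 ± 0.18, E2f7 by 0.95 ± 0.15 and E2f8 by 0.76 ± 0.19 in females, and E2f7 by 0.78 ± 0.13 in males. A list of 8 genes covers DREAM, in which Rbl1 and Rbl2 act, and MuvB complexes without them. Of these 8, 2 fell in females, among them Mybl2 (-0.74 ± 0.14), and 1 in males (list medians -0.30 and -0.02). Of 25 S phase genes driven by E2F, 5 rose and 4 fell in females and 3 rose and 8 fell in males (medians -0.01 and -0.13), with Uhrf1, a factor that maintains DNA methylation, up by 1.32 ± 0.24 and 1.58 ± 0.22 and Mcm10 at -1.03 ± 0.17 and -0.69 ± 0.16. Pcna, the replication clamp, was at -0.89 ± 0.13 in females. Of 19 mitotic genes that DREAM represses, 1 rose and 5 fell in females, among them Aurkb (-1.07 ± 0.26) and Bub1b (-0.64 ± 0.14), and 1 fell in males (medians -0.18 and 0.05). Of 18 genes of the p53 pathway, 1 rose and 4 fell in females and 2 rose and 3 fell in males (medians -0.09 and 0.02). Pmaip1, a pro-apoptotic target, rose in males by 3.04 ± 0.25.

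**Figure D4:**
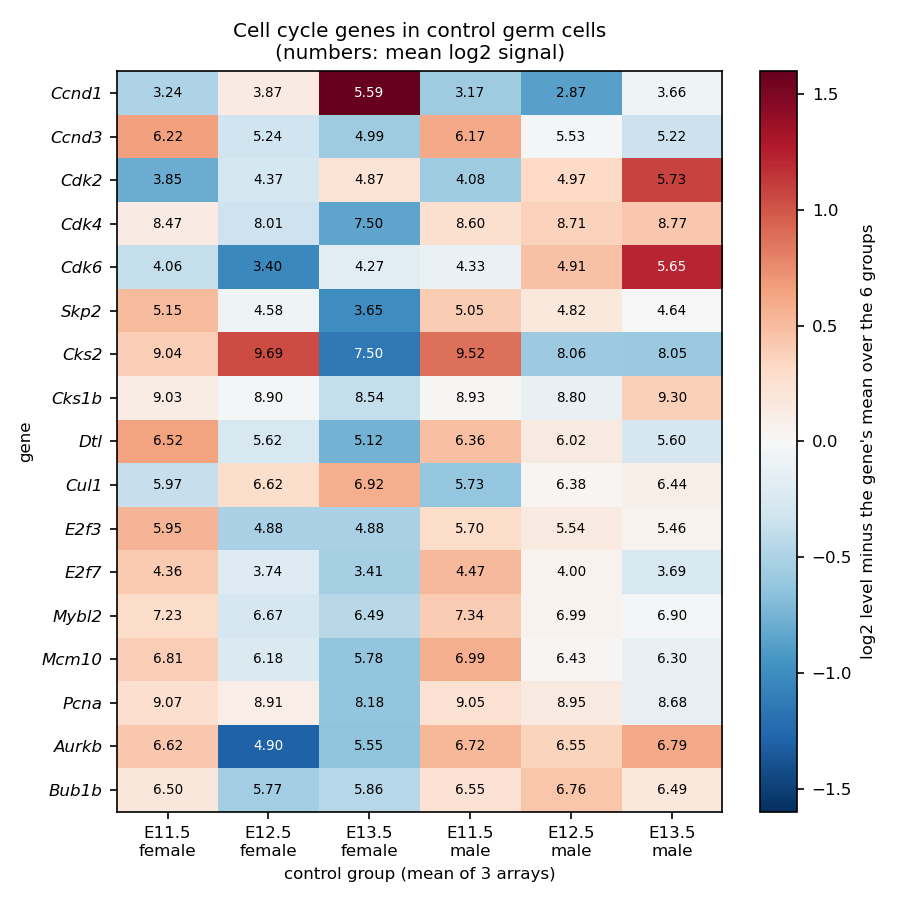
Mean log2 signal (numbers) of 17 cell cycle genes (rows) in the 6 control groups (columns), coloured by the distance from each gene's mean over those groups (log2). Ccnd1 at 5.59 and Skp2 at 3.65 are the highest and the lowest of their rows in E13.5 females, the group with the lowest Cdkn1b and the highest Cdkn2d.

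Between genotypes, few of these genes passed the test in a single stratum. Ccnd1 was higher in Rnf2delta by 0.81 ± 0.15 in E11.5 males, 1.07 ± 0.24 in E12.5 females and 1.14 ± 0.17 in E12.5 males, and over the 4 strata by 0.90 ± 0.09 (limma adjusted p = 4.5e-08). The E12.5 female value was called in 11 of 15 alternatives, not after quantile normalization (0.059), and the E11.5 male value in 15 of 16, not with only those groups in the fit (0.07). Over the strata, where 9.26% of all genes were called, 3 of 10 cyclins and CDKs rose (list median 0.07), Cdk2 by 0.64 ± 0.11 and Ccnd2 by 1.15 ± 0.16 besides Ccnd1. Of the 11 turnover genes 0 were called by limma in each stratum and in the mean, where 3 had an unadjusted p under 0.05. Of the 8 DREAM and MuvB genes also 0 were called, and in the mean 2 had an unadjusted p under 0.05. In that mean, 2 of 19 mitotic genes that DREAM represses rose and 0 fell (list median 0.14, 8 under 0.05 unadjusted). Of 25 S phase genes 2 rose and 0 fell (0.04, 5 under 0.05). For the 10 E2F and DP factors 1 rose and 1 fell (-0.02, 3), and for 18 p53 pathway genes 1 rose and 0 fell (0.06, 2). The median over all tested genes was 0.0115. Cdkn1c, a further inhibitor, which encodes Kip2, was higher by 0.85 ± 0.09 over the strata (9.2e-08), while Cdkn3 was not called.

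Of 21 measured genes listed as regulators of the Cdkn2a and Cdkn2b locus, 5 rose and 1, the deleted Rnf2 itself, fell over the strata. In that mean 9.26% of all genes were called, and the list median was 0.03. The list was drawn up with the germ cell genes Dmrt1, Nanos2 and Nanos3, which have no established part in regulating this locus. Cbx8, a chromodomain subunit of PRC1, was higher by 1.43 ± 0.09 (1.3e-11) and passed in each stratum, with its E12.5 female value called in 12 of 15 alternatives and not with only those groups in the fit (0.077). In E11.5 Rnf2delta males it was at 3.61, 3.86 and 3.92, where the controls were at 2.11, 2.19 and 2.27. Bmi1, a PRC1 subunit known for silencing Cdkn2a, was higher by 0.63 ± 0.12 and Cbx2, a further chromodomain subunit, by 0.36 ± 0.09. These rises stood beside the higher Cdkn2a in the same arrays, and a link between them was not tested.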

How the data were processed

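The authors deposited log2 signals of 34760 probe sets on 30 arrays. Per the submitters' processing notes, R 2.15 and affy 1.36 served for this, and the labels give neither the background correction nor the normalization. Array medians lay between 2.52 and 2.66, so the table was used as deposited. Probe sets with 1 symbol (21640) were kept, 21553 of them updated through Entrez identifiers with RefSeq of GRCm38.p6 and 87 with the annotation's symbol; each gene took its probe set with the highest mean. Genes needed 3 arrays above their own 40th percentile.

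1 limma fit (limma 3.58.1, R 4.3.3) held 1 mean per group, group weights from arrayWeights and 20 residual degrees of freedom, which also set the 95% intervals. Its 19 contrasts gave two-sided moderated tests, adjusted by Benjamini-Hochberg over 15180 genes, and it was tested on simulated data. The members, the 9 pathway lists and the 7 marker lists were chosen with earlier results of these data known. The text names all members, Rnf2, the 3 genes most like each member, and up to 4 genes per list and contrast with the largest change among those past the threshold without overlap of arrays. Promoter windows are the 250 bases before RefSeq starts. The number of arrays limits the precision. Alternatives were equal weights, a weight for each array, only the groups of the contrast, quantile normalization, the mean of all probe sets, no filter, a stricter filter, the replicate block, a trend and each array left out. Replicate numbers were checked as pairs by the correlation of same-numbered arrays' deviations from their group means, and only in E11.5 males was each of the 3 pairs above 0.1. The pairs of E12.5 males were at 0.184, 0.096 and 0.293. Leaving out the 6 E12.5 female arrays was added after seeing the data. In that alternative the mean genotype difference covered only the remaining strata.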

Additional observations from a re-analysis of the deposited data

Results flagged for a closer look

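Cdkn1b and Cdkn2d changed differently in female and male control germ cells between E11.5 and E13.5, by the test of the difference itself. For Cdkn1b the female change was below the male change by a log2 difference of -2.49 ± 0.47 (limma adjusted p = 7.8e-04), with -1.79 in females and 0.70 in males. Its second probe set gave -1.03 for this difference. At E11.5, control females lay above control males by 0.88 ± 0.34 on the first probe set (adjusted p = 0.26), without overlap of arrays, and by 0.04 on the second. For Cdkn2d the female change was above the male change by 1.04 ± 0.27 (0.011), with 1.37 in females and 0.32 in males. For both genes the difference of the stage change between the sexes was called in 22 of 22 alternatives.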

How the results depend on the processing

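Of 133 results (7 genes in 19 contrasts), 2366 recomputed values kept their side of the threshold, 25 lost the call and 12 gained one, and no called value changed sign. Of the 2366, 2263 also kept their sign and 103, of 40 results that were not called, turned it. The cause was not tested. The number of members called in E11.5 males between genotypes was 2, and 0 with equal weights; in E12.5 females it was 0, and 2 with equal weights. From E11.5 to E12.5 in control males 1 was called, and 0 with equal weights or a weight for each array; from E11.5 to E13.5 in males 2 were, and 1 with equal weights; between the sexes at E12.5 it was 0, and 1 with a weight for each array. With each array left out in turn, the counts ran from 0 to 2 between genotypes in E11.5 females and in E11.5 males, from 0 to 1 in E12.5 females and in E12.5 males, from 0 to 2, 1 to 2 and 4 to 5 for the first, second and whole stage step in control females, from 0 to 1, 0 to 1 and 1 to 2 in control males, and from 0 to 1 between the sexes at E12.5.

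Counts over all genes moved more than 1.5 times with equal weights: between genotypes from 153 to 84 in E11.5 females, 305 to 109 in E11.5 males and 235 to 1502 in E12.5 females, in control females from 1544 to 2853 (E11.5 to E12.5) and 2122 to 3309 (E12.5 to E13.5), in control males from 1115 to 397, 394 to 167 and 2859 to 1664, between the sexes from 88 to 38 at E11.5 and 1750 to 2892 at E12.5, and for the stage by sex difference from 1557 to 802. With only the groups of the contrast they fell to 95, 145 and 47 between genotypes, to 33 between the sexes at E11.5 and to 239 between E12.5 and E13.5 males. Quantile normalization gave 134 in E12.5 females between genotypes, and a weight for each array 285 in E12.5 males, where 177 were called. With each array left out in turn, the genes called between genotypes ran from 76 to 122 in E11.5 females, 136 to 293 in E11.5 males, 75 to 353 in E12.5 females and 64 to 291 in E12.5 males. For the first and second stage step they ran from 880 to 1610 and 1006 to 1916 in control females and from 547 to 847 and 163 to 385 in control males, from 21 to 100 between the sexes at E11.5 and 1091 to 1883 at E12.5, and from 1005 to 1425 for the stage by sex difference. Genotype differences between stages or sexes numbered at most 4 and moved to at most 45.

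Of 12 pairs of one replicate number between genotypes, 6 correlated above 0.1 (-0.14 to 0.293) and 10 correlated best with their own number, a hint from the data and not from the design. All 3 pairs of E11.5 males were above 0.1, and in no other stratum were all 3 above it. The pairs of E12.5 males were at 0.184, 0.096 and 0.293, so the hint is not confined to E11.5 males. In E11.5 males and in both sexes at E12.5, all 3 pairs correlated best with their own number. The main fit held group means only and paired no arrays, in E11.5 males or elsewhere. The replicate block was an alternative applied to all contrasts, and no stratum was tested as paired by itself. With the replicate block, 0 of the 133 results changed their call; in E11.5 males between genotypes 2 members were called with the block as without it. Of 80 group means, quantile normalization moved 3 by more than the spread of their arrays, and the mean of all probe sets moved 8, all of Cdkn1b. The signal of Cdkn2b, Cdkn2c and Rbl2 lay near the filter level, where differences can be compressed, which was not tested.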
